A study of Homo sapiens with 40 samples.

Results

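The genes described here encode the machinery that begins transcription in the nucleus: subunits of RNA polymerases I, II and III, the Mediator complex, the TATA-binding protein TBP with its associated factors (TAFs), and the general transcription factors. They were chosen by name from the study's catalogue of transcript models, as gene identifiers that begin with POLR1, POLR2, POLR3, GTF2, GTF3, MED or TAF followed by a digit, or that are TBP, with neither a hyphen nor a low line in the name. This gave 93 genes with 191 models, of 9460 genes with 19972 models in all. The rule left out 3 identifiers with 1 model each, namely MED28-DT, TAF1A-AS1 and a read-through gene that overlaps POLR2C. The prefixes also took in 2 pseudogenes (GTF2H2B and GTF2IP4), the antisense RNA MED14OS, and proteins named with the machinery that do other work, such as TAF15.

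The study used 40 libraries from H9, 1 established line of human embryonic stem cells, and from neural progenitor cells that were derived from H9 by dual SMAD inhibition, which blocks the signals that steer cells away from a neural fate. RNA of each cell type was taken as cytosol, monosomes, light polyribosomes or heavy polyribosomes, here called fractions. Monosomes and the polyribosome fractions differ in the number of ribosomes on the mRNA, and cytosol is not defined by that number. Polyadenylated RNA gave 16 long-read libraries, 2 for each of the 8 pairings of cell type and fraction, and 24 short-read libraries, 3 for each pairing, with the undifferentiated H9 cells as control. The transcript models form 1 catalogue with no value per library, so stem cells, progenitors and fractions are not compared here, and the number of reads behind a model is unknown.

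Each model gives the exons of an mRNA and, where one was called, its coding region. Eukaryotic nuclei divide transcription between polymerase I, which makes the large ribosomal RNA precursor, polymerase II, which makes mRNA, and polymerase III, which makes transfer RNA and other short RNAs. None of them finds a promoter alone. At a polymerase II promoter TFIID, built from TBP and TAFs, binds first, and TFIIA, TFIIB, TFIIF with the polymerase, TFIIE and TFIIH follow, with TFIIH opening the DNA. Mediator bridges this assembly to activators bound at enhancers, and stem cells and their neural descendants use the same core machinery with some exchanged paralogues.

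A list of 132 genes of this machinery, which includes 19 subunits and partners whose names fall outside the naming rule, showed which parts had a model. At least 1 model was present for 107 of them (81.1%, 95% Wilson interval 73.5 to 86.8), against 41.9% of the 20056 protein-coding gene symbols in RefSeq. Polymerase I with its initiation factors had models for 12 of 14 genes, polymerase II for 13 of 15, polymerase III for 10 of 11, and the polymerase III factors TFIIIA, TFIIIB and TFIIIC with SNAPc for 13 of 15. Factors TFIIA to TFIIH had models for 18 of 19 genes, Mediator for 26 of 33, and the TFII-I family for 4 of 4. TFIID with the other TAF proteins had the lowest share, with models for 11 of 21 genes (52.4%, 32.4 to 71.7). Its interval overlaps those of the other complexes, such as Mediator (62.2 to 89.3), except that of TFIIA to TFIIH (94.7%, 75.4 to 99.1).

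The 25 genes without a model include the largest catalytic subunits of polymerases I and II (POLR1A and POLR2A) and POLR3B, the second largest subunit of polymerase III. They also include the largest subunit of TFIIIC (GTF3C1), the scaffold of Mediator (MED14), and the TFIID subunits TAF1, TAF2, TAF3, TAF4, TAF4B, TAF7 and TAF13. In Mediator's kinase module 3 of 7 genes had a model, and MED12, MED13 and their paralogues MED12L and MED13L had none. The others without a model were MED23, MED26, TAF5L, TAF1L, TAF7L, GTF2A1L, POLR2J2, UBTF and SNAPC4. The longest model of the machinery was that of MED1 at 4698 nt, and the longest in the catalogue was 5877 nt. Absence from the catalogue does not show that a gene is silent.

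**Figure D1:**
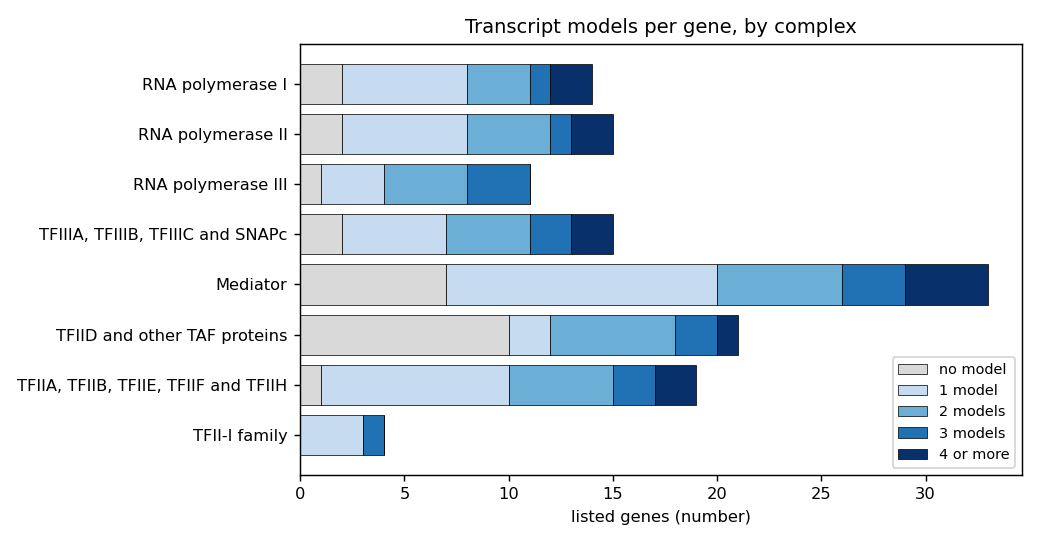
Number of listed genes (x axis) in each complex (y axis), with bar segments for genes with no model, 1, 2, 3 and 4 or more models. TFIID and other TAF proteins have the largest number without a model (10 of 21), and every complex has at least 1 gene with 3 or more models.

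The genes chosen by name carried 2.05 ± 1.38 models each (SD, n = 93 genes, median 2), and all genes of the catalogue carried 2.11 ± 1.70 (median 2). At least 2 models were present for 52 of 93 genes (55.9%, 45.8 to 65.6), against 50% of all genes, and at least 4 for 12 of 93 (12.9%), against 14.5%. The most models belonged to GTF2H2 with 9, POLR2J3 and TAF6 with 6 each, and GTF2H5 with 5. Another 8 genes had 4, namely GTF3C5, MED4, MED6, MED11, MED22, POLR1C, POLR1H and POLR2I. The median model was 1479 nt long (478 to 4698) with 7 exons, against 1537 nt and 6 exons over the catalogue. Coding regions had a median of 248.5 codons (19 to 1499, the stop codon counted), against 285. These are descriptions of 1 catalogue, since genes are not replicates of each other and no test was made over them.

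The 5' ends of the models lay close to annotated starts. RefSeq promoter windows, which run from 250 bases before a gene's start to 50 after it (assembly GRCh38.p14), were matched by symbol for 70 of the 93 genes. Of their 142 models, 130 (91.5%) began inside such a window, against 86.1% of models of all genes with a window, and 126 (88.7%) began within 50 nt of a start. The largest departures were 34579 nt downstream for the shorter model of POLR3E, a subunit of polymerase III, and 7443 nt downstream for the model of TAF1D that has no coding region, a subunit of the polymerase I factor SL1. A model of POLR2H, a subunit shared by all 3 polymerases, began at -448 nt, upstream of the start.

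**Figure D2:**
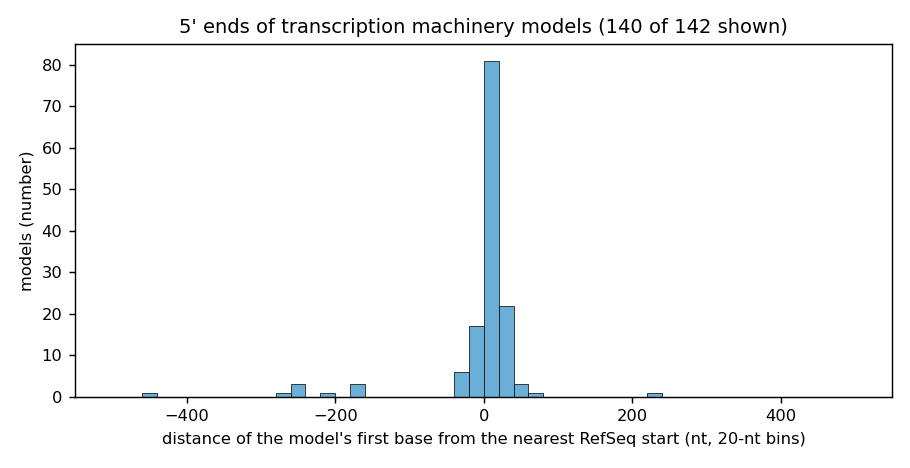
Number of models (y axis) by the distance of the first base from the nearest RefSeq start (x axis, nt, in bins of 20 nt), for the 140 of 142 models within 500 nt. Most models lie in the bins next to 0, with 32 upstream of the start, 9 of them by more than 100 nt.

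The 250 bases upstream of these starts were searched on both strands for 5 motifs, each spelled out here, and a match is a description of letters and not a bound site. Of the 70 genes, 15 had 2 or more windows, and a match in any window of a gene counted. The core of the site of ETS-family activators, CCGGAAG, was present for 23 of 70 genes (32.9%), against 21.2% of the 6975 protein-coding genes that have a window and a model. The letters TGCGCA, the core of the NRF1 site, were present for 14 of 70 (20%), against 15.1%. The TATA box that TBP itself binds, TATAAA, was present for 5 of 70 (7.14%: GTF2B, GTF3C3, MED7, MED16 and POLR2M), against 7.08%. The GC box GGGCGG was present for 43 of 70 (61.4%), against 76.2%, and CCAAT for 24 of 70 (34.3%), against 43.3%. Median GC content of the 250 bases, taken from the first window of each gene, was 58.4% for these genes and 64.8% for the comparison set. GC content bears on how often each motif is met, and its part in these shares was not tested.

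To show the layout, 5 of these promoters are printed as the 120 bases that end just before a RefSeq start, 5' to 3' on the gene's strand. Matches to CCGGAAG or its reverse complement CTTCCGG are in capitals. The stretch is from window 1 of 2 for MED15 and from window 2 of 2 for TAF1B. They were picked after their matches were seen, one or more for different complexes, and no exon of the catalogue covers them. Counting the base before the start as -1, the matches begin at -19 for GTF2H1 (TFIIH, chr11:18322447-18322566, plus strand), and at -47 and -17 for MED15 (tail of Mediator, chr22:20507490-20507609, plus strand). They begin at -75 and -42 for MED17 (head of Mediator, chr11:93784162-93784281, plus strand), at -15 for MED31 (middle of Mediator, chr17:6651606-6651725, minus strand) and at -17 for TAF1B (SL1, chr2:9843354-9843473, plus strand).
GTF2H1: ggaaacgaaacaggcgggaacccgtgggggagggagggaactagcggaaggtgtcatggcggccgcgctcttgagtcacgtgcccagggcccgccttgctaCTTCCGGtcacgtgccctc
MED15: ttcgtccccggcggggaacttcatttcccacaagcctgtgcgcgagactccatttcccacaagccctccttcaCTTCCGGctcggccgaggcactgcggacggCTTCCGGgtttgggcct
MED17: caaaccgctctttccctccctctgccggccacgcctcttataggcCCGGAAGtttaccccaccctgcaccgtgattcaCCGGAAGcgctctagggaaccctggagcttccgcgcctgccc
MED31: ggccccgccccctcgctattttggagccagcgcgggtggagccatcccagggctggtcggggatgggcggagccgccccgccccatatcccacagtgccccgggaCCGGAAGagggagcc
TAF1B: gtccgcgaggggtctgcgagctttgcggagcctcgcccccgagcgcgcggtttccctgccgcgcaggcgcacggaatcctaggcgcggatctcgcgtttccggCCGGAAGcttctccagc
The 3 models of GTF2H1 began at the RefSeq start itself, those of MED15 12 nt after it, that of MED17 11 nt after it, those of MED31 0 to 29 nt after it, and that of TAF1B 20 nt after it.

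Polymerase I had 23 models in 12 genes. The second largest subunit, POLR1B, had 1 model of 1136 codons, and the other subunits with 1 model were POLR1E (420 codons) and POLR1F (339). POLR1C and POLR1D form the pair of subunits around which polymerases I and III are both assembled. The 4 models of POLR1C (chr6:43517089-43529377) carried 347, 343, 175 and 175 codons. The 347-codon and 343-codon forms shared their first 307 codons and then used different last exons, one ending at 43521503 and the other lying alone at chr6:43529249-43529377. The 175-codon forms kept the last exon of the longest form but were called from a later start, behind 756 and 604 nt of 5' untranslated region, against 10 and 13 nt in the longer forms. In 1 of them an intron of 227 nt was retained ahead of that start. Over POLR1C, then, the called coding regions differ at both the start and the end. The 175-codon models keep the exon that holds the start of the longer forms, and which start is used was not tested.

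POLR1D (chr13:27621875-27667411) had 2 models whose coding regions share a start and almost nothing else. Its coding regions of 134 and 123 codons had 8 codons in common in the same frame before the exon chains part to last exons of 573 nt and 1726 nt. POLR1H, the small subunit that helps the enzyme cleave its RNA, showed the opposite arrangement. Its 4 models held the same 127 codons, and their 5' untranslated regions ranged from 77 to 260 nt. They differ there by 5' splice sites 9 and 15 nt apart, by a retained intron, and by first bases that lie 0 to 67 nt after the RefSeq start. POLR1G, another polymerase I subunit, had coding regions of 511 and 147 codons, the shorter one in a model with a retained intron of 375 nt and a stop at the model's edge. Among the SL1 subunits TAF1B (589 codons) and TAF1C (844) had 1 model. TAF1A had coding regions of 451 and 413 codons, which differ by a cassette exon of 114 nt (chr1:222579759-222579872), or 38 codons in frame. TAF1D had 3 models with separate last exons, of 279 and 140 codons and without a coding region. The 140-codon region ends 2 nt from the model's end, and the model without a coding region lies wholly downstream of the others.

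Polymerase II had 27 models in 13 genes. POLR2B, the second largest subunit, had 1 model of 1175 codons, and POLR2C, POLR2E and POLR2J had 1 each of 276, 211 and 118 codons. POLR2D, which with POLR2G forms the stalk beside the RNA exit, had 143 codons, or 111 where a cassette exon of 96 nt (chr2:127850590-127850685) was absent, a loss of 32 codons in frame. POLR2G had 2 models that used different internal exons, which share no base. These are chr11:62762867-62763026 (160 nt) in a model of 173 codons and the adjoining chr11:62762542-62762866 (325 nt) in a model without a coding region. POLR2I, a subunit that affects fidelity, had 4 models that combine 2 introns of 246 and 84 nt, each kept in 2 models and spliced in 2. With both introns removed the coding region had 126 codons, with the 84-nt intron kept it had 104, and no coding region was called in the 2 models that kept the 246-nt intron. The 84-nt stretch lay outside the coding region of the model that kept it.

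Of the subunits shared by all 3 polymerases, POLR2K and POLR2L, both known as very small proteins, had 1 model each without a called coding region. Why none was called was not tested. POLR2F had 128 codons in 1 of its 2 models and none in the other, with 5' splice sites 59 nt apart. POLR2H (chr3:184361714-184368591) had 3 models with 2 separate first exons. Its 2 models with 151 codons carried 1053 and 580 nt of 5' untranslated region, and the third was called from a later start with 115 codons. POLR2M, a protein that binds polymerase II and keeps TFIIF off it, had 369 codons or the last 138 of them, and its 3' untranslated regions behind the same stop measured 2875 and 236 nt.

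POLR2J3, a copy of POLR2J, had 6 models on chr7:102537919-102572579. In 2 models 275 codons were called and in 3 others 136, 116 and 116, with none in the sixth. The 136-codon and 116-codon regions hold no codon in the frame of the 275-codon one. They were called from other starts than the 275-codon region. They lie in the 3 models that include a cassette exon of 175 nt (chr7:102568010-102568184), which the other 3 skip. Its length is not divisible by 3. In 4 models an intron of 25334 nt leads to a distant last exon, and 2 models end in a nearer one.

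Polymerase III had 20 models in 10 genes, among them CRCP, whose name lies outside the rule. POLR3A, the largest subunit, had 1 model of 967 codons with a coding region at the edge of the model, and POLR3C (535) and POLR3K (109) had 1 each. POLR3G is the form of its subunit that is known from pluripotent stem cells, and POLR3GL is the paralogue used more widely. Both had models. The 2 of POLR3G held the same 101 codons, with 3' splice sites 10 nt apart in the 5' untranslated region. The 3 of POLR3GL held 219, 196 and 100 codons, where the 196-codon form lacks a cassette exon of 69 nt (chr1:145977084-145977152), or 23 codons in frame, and the 100-codon form shares no codon in frame. The catalogue does not say which cell type each came from.

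POLR3F, which joins POLR3C and POLR3G in a subcomplex used for initiation, had 3 forms. Its 317 codons were reduced to 233 where a cassette exon of 118 nt (chr20:18468944-18469061) was skipped and a later start was called. A model of 921 nt that reads on through that exon and ends there had 63 codons, 60 of them shared. POLR3D had 1 coding region of 399 codons behind 2 first exons, and POLR3E had 709 codons in its longer model and no coding region in the other.

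Polymerase III factors inside the naming rule are GTF3A, the zinc-finger protein TFIIIA, and the TFIIIC subunits, which recognise promoter elements inside transfer RNA genes. GTF3A had coding regions of 240, 131 and 24 codons. The model with the shortest lacks a cassette exon of 74 nt (chr13:27432731-27432804) that the others have, and both shorter forms differ from the longest by 5 nt at a 3' splice site. The 24-codon region has a start of its own and shares no codon in frame with the longest, and its stop lies 292 nt before the last junction. GTF3C5 had 4 forms of 527, 520, 473 and 346 codons with 1 stop. An exon of 21 nt (chr9:133054944-133054964), present in 1 model of 4, separates the first and the second by 7 codons. The remaining forms have other starts, and the 346-codon model also has 9 exons, against 11 or 12, with an intron of 19618 nt. GTF3C3 had 887 or 414 codons, with 406 shared before separate last exons, and GTF3C2 had 893 or 846. GTF3C4 (823 codons) and GTF3C6 (214) had 1 model each. Outside the rule, BRF2 and the SNAPc subunits SNAPC2, SNAPC3 and SNAPC5 had 2, 3, 2 and 4 models, and BRF1, BDP1 and SNAPC1 had 1.

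Mediator is divided into head, middle, tail and kinase modules. All 7 head genes had a model (19 models), 8 of 9 middle genes (14 models), 4 of 5 tail genes (6 models) and 4 of 4 genes between head and tail (5 models). In the head, MED17 (652 codons) and MED18 (209) had 1 model. MED6 (chr14:70584230-70600655) had 4 forms of 254, 247, 158 and 129 codons from 1 start. The first and the second differ by 21 nt at a 3' splice site, or 7 codons, and the others end about midway along the gene, in last exons within chr14:70592508-70593378. MED11 had 118, 94 and 86 codons, of which the first 72 are shared, and its remaining model, which retained an intron of 201 nt, had no coding region. MED22 had 3 models of 201 codons with 5' untranslated regions of 749, 214 and 196 nt, the longest from a separate first exon, and 1 of 141 codons, which shares 137 of them and ends in a retained intron of 2430 nt.

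MED20 and MED8, also in the head, each had a form with a later start. MED20 had 213 codons, 151 from a later start where a cassette exon of 155 nt (chr6:41916785-41916939) was skipped, and 124 with the same start and another stop where a 5' splice site moved by 76 nt. MED8 had 269 or the last 180, with 3' splice sites 61 nt apart. In the middle module MED4 (chr13:48053325-48095104) had 4 forms of 322, 276, 271 and 225 codons. These are every combination of 2 starts, set by 5' splice sites 106 nt apart, and 2 last exons, of 167 and 1357 nt. The 2 forms with the 167-nt exon stop at the last base of the model. MED21 had 145 codons, and its other model, without a cassette exon of 115 nt (chr12:27026420-27026534), had no coding region. MED31 had 132 codons in 1 model, while the model without a 97-nt cassette exon and the model ending in an intron had none. MED1, which binds nuclear receptors, had 1 model of 1499 codons that reaches a model end, and MED7, MED9, MED10 and MED19 had 1 of 234, 147, 136 and 245 codons.

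In the tail and beside it, MED16 had 842 or 773 codons, which differ by a cassette exon of 207 nt (chr19:876974-877180), or 69 codons in frame, the largest in-frame loss of an exon among these genes. MED27 had 312 or 276, which differ by a cassette exon of 108 nt (chr9:131893885-131893992), or 36 codons. MED15 had 749 codons, and 695 in a model with both an added exon of 120 nt (chr22:20575113-20575232) and a retained intron of 85 nt inside the coding region (chr22:20585016-20585100). The frame was kept by the exon and lost in the intron, and the stop lies 230 nt before the last junction. MED24 (990 codons), MED25 (748), MED28 (179), MED29 (201) and MED30 (169) had 1 model each. In the kinase module CCNC had 3 models of 283 or 284 codons and CDK8 had 2 of 464 and 465, while CDK19, the paralogue of CDK8, had 1 of 47 codons.

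TBP, used by all 3 polymerases, had 3 models on chr6:170554372-170572859. In 2 of them 340 codons were called, with 3' splice sites 3 nt apart in the 5' untranslated region. The other ended in a separate last exon (chr6:170566918-170567486) and had 227 codons, 225 of them shared. TBP's DNA-binding domain is known to occupy its C-terminal part, which the shorter form leaves incomplete.

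TAF6, a histone-fold protein that pairs with TAF9 in TFIID, had 6 models on chr7:100107070-100119360 and 1 start and 1 stop. In 4 models 678 codons were called, behind 5' untranslated regions of 540, 342, 216 and 85 nt. These come from 3 donor sites of the first exon and a cassette exon of 132 nt (chr7:100118518-100118649). A further model lost 30 nt at a 5' splice site, which leaves 668 codons, and the last lost a cassette exon of 57 nt (chr7:100113349-100113405), which leaves 659. Splicing of TAF6 was thus varied in front of the coding region and changed in it by 10 or 19 codons, with no change of frame.

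**Figure D3:**
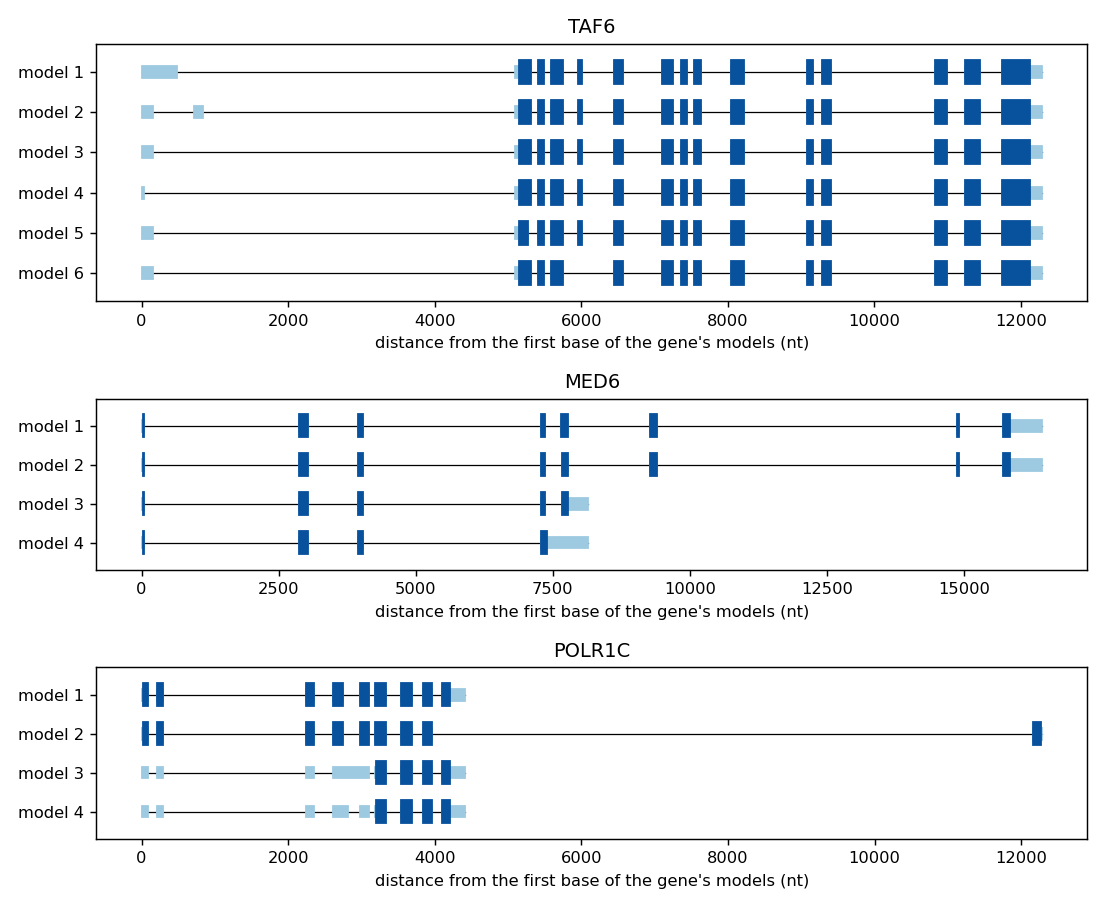
Exons (light), coding regions (dark, taller) and introns (lines) of the models of TAF6, MED6 and POLR1C, by distance from the first base of the gene's models (x axis, nt), 5' to the left. TAF6's 6 models differ mostly before the coding region, models 3 and 4 of MED6 end midway along the gene, and models 3 and 4 of POLR1C have a later coding start.

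Among the other TAFs, TAF11 had 212, 163 and 155 codons with 136 shared, and its 163-codon model retained the introns behind that point, of 225 and 1246 nt. TAF8 had 238 or 175 codons with 163 shared before separate last exons. TAF10, a histone-fold subunit of TFIID and SAGA, had 219 codons in 1 model and 19 in the other, where a 5' splice site moved by 129 nt. The 19-codon region was called from a start of its own, behind 358 nt of 5' untranslated region against 6 nt. It shares 9 codons in frame with the longer one, and its stop lies 279 nt before the last junction. TAF12 had 162 codons, and none in a model without a cassette exon of 252 nt. TAF5 had 1 model of 2 exons and 292 codons, TAF9B had 1 of 247, and both models of TAF9 held 265. TAF6L, the counterpart of TAF6 in SAGA, had 623 codons, or 506 from another start in a model that retained an intron of 533 nt. TAF15, an RNA-binding protein of the FET family, had 593 codons, or 203 with 201 shared in a model that ends in a last exon of 1708 nt.

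The small factors that load polymerase II had few models. GTF2A1, GTF2B, GTF2E1, GTF2E2, GTF2F1 and GTF2F2 had 1 model each, with coding regions of 377, 317, 440, 292, 490 and 250 codons. GTF2A2, the small subunit of TFIIA, had 110 or 107 codons, set by 3' splice sites 9 nt apart, the smallest difference in codons among these genes with 1 start and 1 stop.

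TFIIH carried most of the models of this group, with 25 in the 8 genes of its core and 6 in the 3 of its kinase. GTF2H1 (chr11:18322567-18366814) had 3 models with 549, 386 and 320 codons and 3 separate last exons, and the shorter forms shared 351 and 279 codons with the longest. GTF2H2 had 9 models in which 3 carried 396 codons, 1 carried 387, 4 carried 166 and 1 none. The 166-codon forms share 156 codons with the longest and end in an exon at chr5:71055052-71055457. A cassette exon of 98 nt in the 5' untranslated region (chr5:71065125-71065222), present in 5 models and absent from 4, occurred with both ends. GTF2H3 had 309 or 266 codons, where 2 adjoining exons of 75 and 54 nt (chr12:123654924-123654998 and chr12:123655771-123655824) were missing together, or 43 codons in frame. GTF2H4 held 463 codons in both models.

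GTF2H5, the smallest TFIIH subunit, had 5 models of 478 to 1125 nt and no called coding region in any. They differ in 2 cassette exons of 195 and 69 nt, a retained intron and 5' splice sites, all near the 5' end. The helicases ERCC3 and ERCC2, whose names fall outside the rule, had 1 model each of 783 and 761 codons. The kinase CDK7 had 1 of 347, cyclin CCNH had 2 and MNAT1 had 3.

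TFII-I proteins are sequence-specific factors encoded on chromosome 7, in part by genes with near-identical copies. GTF2I and GTF2IRD1 had 1 model each, of 958 and 960 codons with 33 and 27 exons. GTF2IRD2B had 950, 182 and 109 codons from 1 start with 3 separate last exons, and GTF2IRD2 had 1 model of 109. The pseudogene GTF2IP4 had 1 model with 531 codons called.

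Over the 52 genes with at least 2 models, the kinds of difference were counted and set beside all 4725 genes with at least 2 models at 1 locus. A cassette exon is an internal exon of 1 model that another model skips. These were present in 20 of 52 genes (38.5%, 26.5 to 52.0), against 49.4%. Alternative 5' splice sites were present in 18 (34.6%), against 25.2%, alternative last exons in 16 (30.8%), against 27%, and retained introns in 14 (26.9%, 16.8 to 40.3), against 17.4%. Alternative 3' splice sites were present in 8 (15.4%), against 23.3%, and alternative first exons in 5 (9.62%: MED22, POLR2H, POLR3D, POLR3E and TAF1D), against 18.1%. The interval of each kind includes the value for all genes. Among the alternative first exons, 1 each in POLR3E and TAF1D belongs to a model without a coding region. These models begin 34579 and 7443 nt downstream of the RefSeq start, and that of TAF1D shares no base with the gene's other models.

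**Figure D4:**
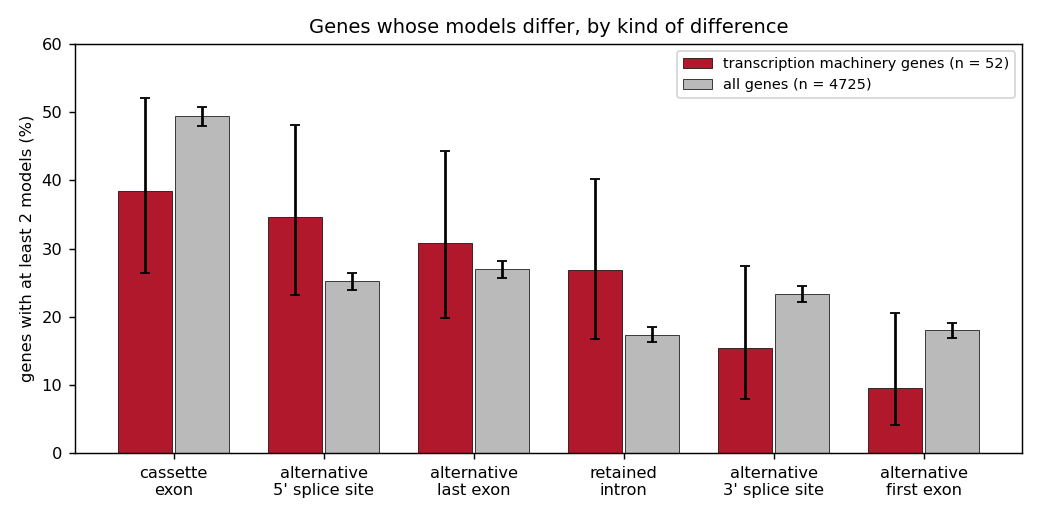
Share of genes with at least 2 models (y axis, %) that show each kind of difference between their models (x axis), for the 52 transcription machinery genes and for all 4725 genes. Bars are shares and whiskers are 95% Wilson intervals, which run from 26.5 to 52.0% for cassette exons of the machinery.

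The 23 cassette exons had a median of 98 nt (21 to 252), against 110 nt over the catalogue. Of these, 12 were divisible by 3 (52.2%, 33.0 to 70.8), against 40.4% of 3571. Of the 16 that lie wholly inside the coding region of a model that has them, 8 were divisible by 3 (50%, 28.0 to 72.0), against 44.1%. They are the exons of GTF3C5, MED15, MED16, MED27, POLR2D, POLR3GL, TAF1A and TAF6 given above. The other 8 lie in GTF2H2, GTF3A, MED20, MED21, MED31, POLR2J3, POLR3F and TAF11, and skipping or including them went with another start, another stop or no coding region. The interval for so few exons is wide and includes the catalogue's share.

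Coding regions differed in the same share of genes as over the catalogue, and in more genes at the end than at the start. Of the 45 genes with at least 2 coding models, 38 had at least 2 coding regions (84.4%), against 84.4% of all such genes. At least 2 stops were present in 24 (53.3%, 39.1 to 67.1), against 41.6%, and at least 2 starts in 16 (35.6%, 23.2 to 50.2), against 44.8%. The 7 genes with 1 coding region in all coding models were GTF2H2B, GTF2H2C, GTF2H4, POLR1H, POLR3D, POLR3G and TAF9. Both intervals include the catalogue's value. In MED4, POLR1G and TAF1D, 1 of the counted stops lies within 2 nt of a model end, so those regions may continue beyond the model.

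Each of the 56 other coding regions was then compared with the longest of its gene. In 25 the start was the same and the stop differed (44.6%, against 32.9% of 6222 over the catalogue), as in TBP, MED6 and GTF2H1. In 13 another start led to the same stop (23.2%, against 33.6%), as in MED8 and POLR2H. In 11 both were the same and the inside differed (19.6%, against 25.6%), by 3 codons in GTF2A2 to 69 in MED16, and in 7 both differed (12.5%, against 7.91%). Under 10% of codons were shared in frame in 5 (8.93%, against 3.21%), which lie in GTF3A, POLR1D, POLR2J3 and POLR3GL.

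**Figure D5:**
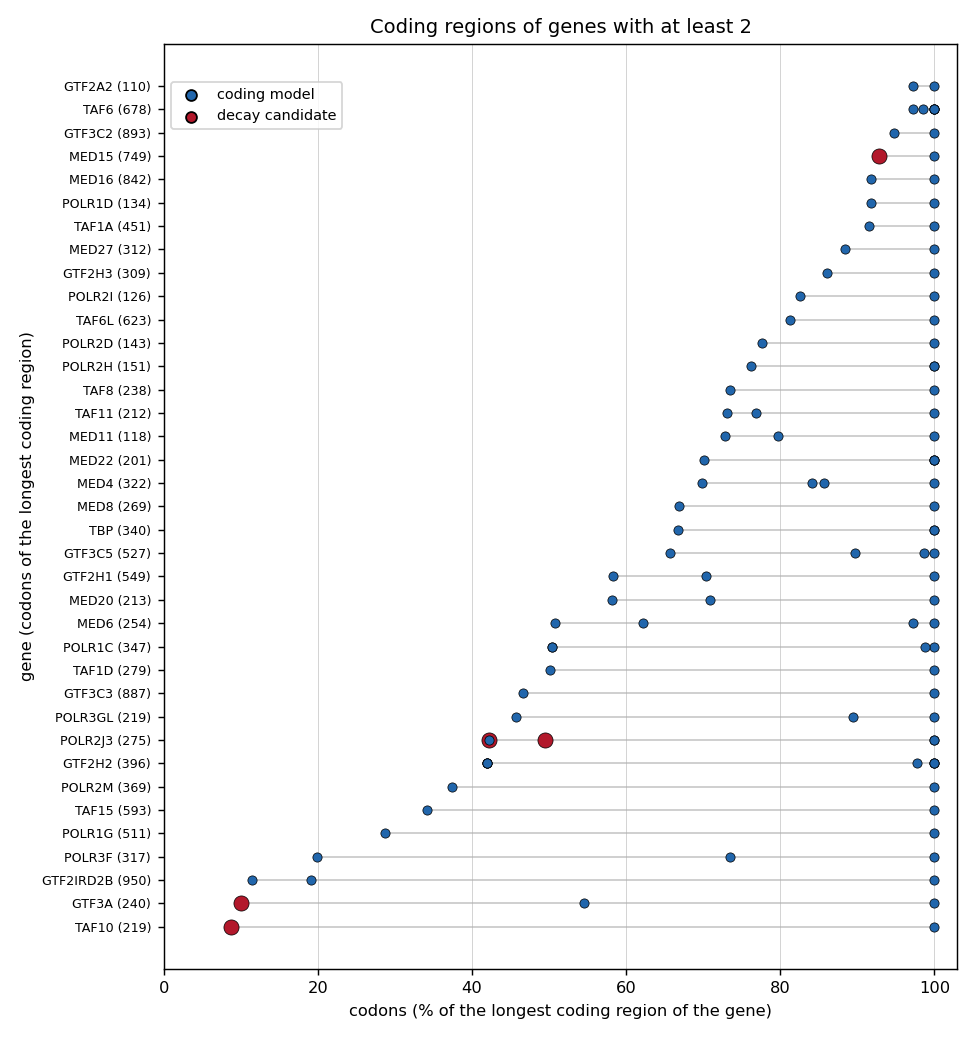
Length of each coding region as a percentage of the longest of its gene (x axis) for genes with at least 2 (y axis, with the codons of the longest region in parentheses). Points are models, and red points, larger, are decay candidates. TAF6 and GTF2A2 lie at the top with regions close to full length, and TAF10, GTF3A and GTF2IRD2B reach the lowest percentages.

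A coding region that stops more than 50 nt before the last exon junction marks an mRNA as a candidate for nonsense-mediated decay, the pathway that removes mRNAs with early stops. There were 5 such models of 170 coding ones (2.94%), against 3.14%, in 4 of 89 coding genes (4.49%, 1.76 to 11.0), against 5.01%. They are the 24-codon model of GTF3A, the 695-codon model of MED15, the 19-codon model of TAF10, and 2 models of POLR2J3 whose stops lie 625 nt before the last junction. Among genes outside the rule, SNAPC3 had 1. Only called coding regions were used, so an early stop behind a start that was not called is not counted. No coding region was called in 21 of 191 models (11%), against 13.6%. These are all the models of GTF2H5, POLR2K, POLR2L and MED14OS (4 of 93 genes, 4.3%, against 9.31%) and 13 models in 11 genes that had a coding model too. In 7 of 170 coding models (4.12%, against 4.01%) the coding region came within 2 nt of a model end, among them those of MED1 and POLR3A, and such a region may continue beyond the model.

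Untranslated regions differed by at least 100 nt in a minority of genes. Behind 1 stop position this was so at the 3' end for 8 of 32 genes with at least 2 such models (25%), against 19.2%. Among them were POLR2M, given above, GTF2H3 (487 to 1406 nt), POLR2D (1841 to 2713 nt), GTF2H2C, POLR2J3, GTF3A and GTF2A2. Before 1 start position this was so for 8 of 38 genes (21.1%), against 28%. The widest were MED22 (172 to 749 nt), POLR2H (580 to 1053 nt) and TAF6 (85 to 540 nt), and GTF2H2, POLR1H, POLR1C and GTF2H2B were among the others.

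Reads of near-identical gene copies may have been placed on the wrong one, so the models of GTF2H2, GTF2H2B, GTF2H2C, POLR2J, POLR2J3, GTF2I, GTF2IP4, GTF2IRD2 and GTF2IRD2B (9 genes, 26 models) are uncertain in that respect. Without them 84 genes remained, with a mean of 1.96 models, 18 cassette exons and 3 decay candidates, against 5 with them. TAF9 shares an intron with the overlapping gene AK6, and POLR2C and POLR2D each overlap a read-through gene on the same strand.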

How the data were processed

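The starting material was the authors' deposited set of transcript models, in which each line gives the first and last base, in nt, of a transcript, exon or coding region and names PacBio as its source. STAR (version 2.7.8a) and Salmon (version 1.9.0) appear in the submitters' processing notes, which do not say what each was used for. How the models and their coding regions were made and filtered, and on which assembly, was not given in the sources used here. Coordinates are printed as deposited, counted from 1. No file with a value per library was analysed here, so the labels' groups were described and not compared, and depth is unknown. A catalogue of this kind depends on read length and on mRNA abundance.

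Genes were taken by name, and all 93 symbols were found in RefSeq's table (GRCh38.p14), used for gene types. Splicing differences were found within each gene, chromosome and strand with scripts in Python 3.11.15, checked on 22 made-up cases, and drawn with matplotlib 3.10.9. An alternative first or last exon does not overlap the first or last exon of another model. A retained intron lies inside an exon of another model. Codons were called shared where all 3 bases lay at the same positions in the same frame. Wilson intervals (95%) cover counting error only. The members, the list of 132 genes and the counts were chosen with earlier results of these data known. Genes described one by one are those with at least 4 models, a cassette exon or retained intron in a coding region, a decay candidate or at least 3 coding regions, and the gene with the most models in each complex, and the others are given briefly. The values of 1 gene are counted in the totals but not reported here. RefSeq protein lengths and sequences were not used here. Alternatives changed the minimum of models, the distance for decay candidates and the genes included.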

Additional observations from a re-analysis of the deposited data

How the results depend on the processing

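The share of listed genes with a model, 81.1%, became 45.5% where at least 2 models were asked for. It was 79.6% over the 113 listed genes inside the naming rule. Of the 23 cassette exons, 2 had each form in at least 2 models. These are the 98-nt exon of GTF2H2 and the 175-nt exon of POLR2J3, both in genes with near-identical copies. For the other exons at least 1 form rests on 1 model, and the number of reads behind it is unknown. Decay candidates numbered 8 where any stop before the last junction counted and 5 from 100 nt. Leaving out genes with near-identical copies, an alternative chosen after seeing the data, left 3. Mean models per gene lay between 1.56 (distinct coding regions) and 2.11 (without the TFII-I family, pseudogenes and TAF15), and the share of genes with at least 2 coding regions between 83.7% and 87.5%. The comparison with RefSeq protein lengths was not run. No paired analysis was possible because the catalogue holds no value per library. For the same reason no statement can be made on differences between stem cells and progenitors, between fractions, or on the abundance of any form, and long mRNAs may be missing or cut short.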
